A study of Mus musculus with 28 samples.

Results

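IAPEY3 and IAP-d are 2 groups of endogenous retroviruses of the mouse ERVK class, followed here as single copies, called integrants, in mouse embryonic stem cells depleted of KAP1. Members were taken from the repeat track of the deposited read counts by name: an integrant counted if any of its merged parts was called IAPEY3 or IAP-d and none was IAPEz-int, the internal part of the better known IAPEz group. It also had to hold 16 or more reads over the 16 RNA libraries, which left 244 of 1761 IAPEY3 integrants and 99 of 633 IAP-d integrants, 343 among the 123880 transposable element (TE) integrants of the series that reached this count. The RNA-seq compared cells 5 days after lentiviral delivery of a hairpin against Kap1 (shKap1) or of the empty vector (shEmpty), in wild-type cells (WT, 3 libraries per hairpin), in cells without Dnmt1, Dnmt3a and Dnmt3b (DNMT TKO, 3 per hairpin) and in cells without Tet1, Tet2 and Tet3 (TET TKO, 2 per hairpin). All cells carried a lentiviral vector, were selected with puromycin and were kept on gelatin in 2i medium with LIF, a culture that holds stem cells in the naive state with low DNA methylation. The labels give the J1 line of strain 129S4/SvJae for every RNA library, and each mutant genotype came from another laboratory as a line of its own, so that genotype and line cannot be told apart. The labels do not say what separates the libraries of 1 group, and the study describes them as independent experiments.

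KAP1, encoded by Trim28, is a corepressor without DNA-binding activity of its own. KRAB zinc finger proteins bring it to specific sequences, many of them inside retroviral insertions, where the histone methyltransferase SETDB1 adds the silencing mark H3K9me3 and where DNA methyltransferases keep CpGs methylated. TET enzymes oxidise methylated cytosine to 5-hydroxymethylcytosine (5hmC). A complete provirus carries a long terminal repeat (LTR) at each end, and the 5′ LTR acts as its promoter.

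The targeted gene served as the check of the labels. Trim28 was at 1752 ± 207 CPM in WT shEmpty and 165 ± 21.9 in WT shKap1 (reads per 1000000 gene reads, mean ± SD, n = 3 each), at 1869 ± 197 and 427 ± 91.5 in DNMT TKO, and at 1835 ± 89.8 and 166 ± 3.84 in TET TKO (n = 2). The log2 change was -3.41 in WT, -2.13 in DNMT TKO and -3.47 in TET TKO, and the difference of DNMT TKO from WT, 1.28, passed the test (adjusted p = 0.00080, edgeR quasi-likelihood test, with 4.66% of genes called in this direction), so depletion was weaker in the DNMT TKO libraries. Of the 25 tested genes of a repression list (Trim28, Setdb1, HP1, DNMT, TET and zinc finger genes), Suv39h1, Dnmt3a and Tet3 rose and Trim28 fell on knockdown in WT, where 10.8% of the 20321 tested genes rose and 6.54% fell. Zfp932 and Gm15446, a pair of KRAB zinc finger genes in that list, were not called in any of the 3 knockdowns. Dnmt1, Dnmt3a and Dnmt3b were called lower in DNMT TKO shEmpty than in WT shEmpty, where 8.05% of genes were. Tet1 and Tet2 were called lower in TET TKO shEmpty than in WT shEmpty. Tet3 was not called lower in that comparison at the level of whole-gene reads. The 7 tested stem cell markers, Pou5f1 and Nanog among them, summed to between 4014 and 4518 CPM in shEmpty libraries and to between 2480 and 3152 in shKap1 libraries, and Sox2, Klf4 and Dppa5a fell in WT. The 5 fibroblast markers summed to between 3.04 and 11.6 CPM, highest in DNMT TKO shKap1, with Postn at a mean of 0.0968 or less. The 3 tested genes of primed cells summed to between 15.4 and 17.6 CPM in DNMT TKO shEmpty, above the 2.69 to 5.78 in WT shEmpty and the 4.05 to 4.13 in TET TKO shEmpty, but they differed among themselves, with mean levels in WT and DNMT TKO shEmpty of 0.742 and 6.50 CPM for Otx2, 2.95 and 9.92 for T, and 0.506 and 0.0454 for Fgf5. Zfp42, a gene of naive cells, was at 654 ± 9.43 in DNMT TKO shEmpty against 129 ± 1.31 in WT shEmpty (n = 3 each). The 4 primitive endoderm genes summed to between 5.48 and 15.5 CPM over all libraries and the 3 trophoblast genes to between 3.67 and 24.2. The 2-cell stage genes Zscan4c, Zscan4d and Zfp352 rose in each knockdown, from a sum of 19.7 CPM or less to between 47.1 and 477. The part of these shifts in the results below was not tested. Libraries held between 18108431 and 29373696 reads in genes and between 898152 and 1803819 in TEs.

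The 5′ LTRs of 3 proviruses are printed because these elements are described below and because their LTRs belong to the 3 kinds that most members have. Each was read from the mm9 genome on the strand of its element, up to 300 bases from the 5′ end, and capitals mark CpG sites, the substrate of the DNA methyltransferases.
IAPEY3, IAPEY2_LTR, chr11:50965159-50965457 (- strand): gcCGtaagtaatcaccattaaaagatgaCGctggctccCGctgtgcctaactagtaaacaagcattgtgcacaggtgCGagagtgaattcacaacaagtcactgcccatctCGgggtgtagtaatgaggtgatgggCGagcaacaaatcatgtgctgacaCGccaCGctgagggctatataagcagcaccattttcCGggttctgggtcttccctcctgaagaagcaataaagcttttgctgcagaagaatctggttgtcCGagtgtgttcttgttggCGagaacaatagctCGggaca
IAPEY3, IAPEY3_LTR, chr5:138659121-138659420 (- strand): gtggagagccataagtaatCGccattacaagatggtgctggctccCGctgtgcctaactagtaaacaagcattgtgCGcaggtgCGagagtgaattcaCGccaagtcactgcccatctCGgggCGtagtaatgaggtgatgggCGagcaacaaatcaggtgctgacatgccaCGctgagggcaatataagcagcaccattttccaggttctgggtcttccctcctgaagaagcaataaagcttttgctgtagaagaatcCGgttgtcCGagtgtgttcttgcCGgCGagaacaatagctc
IAP-d, RLTR10D, chr11:106492196-106492495 (+ strand): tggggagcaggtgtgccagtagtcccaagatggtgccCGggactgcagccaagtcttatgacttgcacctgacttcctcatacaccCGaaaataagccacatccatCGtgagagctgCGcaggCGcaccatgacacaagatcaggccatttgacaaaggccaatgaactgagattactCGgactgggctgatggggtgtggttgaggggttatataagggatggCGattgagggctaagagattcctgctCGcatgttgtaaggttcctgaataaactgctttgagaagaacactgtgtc
The IAPEY2_LTR of chr11:50957218 and the IAPEY3_LTR of chr5:138651204 aligned with 94.2% identity over 293 columns, whereas neither aligned with the RLTR10D over more than 16 columns. Within single proviruses the 5′ and 3′ LTRs were 93.7% identical in the median for 29 elements with IAPEY2_LTR, 93.4% for 21 with IAPEY3_LTR and 91.0% for 26 with RLTR10D. The median number of CpGs per LTR was 16 for IAPEY2_LTR, 12 for IAPEY3_LTR and 8 for RLTR10D, at median lengths of 326, 305 and 351 bp.

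Most integrants that reached 16 reads were fragments. Of the 244 IAPEY3 members, 57 had an internal part with an LTR at each end, 114 had an LTR at 1 end, 56 were internal sequence alone and 16 were LTRs alone, out of 101, 457, 547 and 654 such integrants in the track, and 1 had an LTR inside. Of the 99 IAP-d members, 31 had 2 end LTRs, 37 had 1 and 31 had none, out of 65, 118 and 450. The LTR was RLTR10D in 61 IAP-d members and RLTR10A in 7, and among IAPEY3 members it was IAPEY2_LTR in 97, IAPEY3_LTR in 53, RLTR10B2 in 20 and IAPEY3C_LTR in 12. IAPEY3C_LTR also flanks other internal parts, so 7 members with MMERVK10C-int and 2 with IAP1-MM_I-int entered through the name of their LTR alone. The reads were concentrated in few copies: the 10 most-read integrants held 40.5% of the reads of IAPEY3 members and 76.4% of those of IAP-d members, and a single IAP-d copy on chromosome 17 held 30.6%. At the threshold, 6 IAPEY3 and 3 IAP-d integrants had exactly 16 reads and entered, and 5 and 4 had 15 and did not.

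Summed over their members, both groups rose on Kap1 knockdown in every genotype. IAPEY3 reads were at 19.4, 16.8 and 18.2 CPM in the 3 WT shEmpty libraries and at 102, 110 and 112 in WT shKap1, while the DNMT TKO libraries went from 20.0, 25.9 and 26.0 to 435, 319 and 325 and the TET TKO libraries from 40.7 and 41.6 to 283 and 281. IAP-d reads went from 25.0, 28.9 and 26.9 to 83.7, 124 and 108 in WT, from 52.9, 67.3 and 62.4 to 224, 194 and 200 in DNMT TKO, and from 80.4 and 86.1 to 207 and 210 in TET TKO. In no genotype did shKap1 and shEmpty libraries overlap in either group. The log2 change was 2.57 ± 0.13 in WT, 3.90 ± 0.13 in DNMT TKO and 2.77 ± 0.15 in TET TKO for IAPEY3 (estimate ± SE, edgeR quasi-likelihood test over 847 repeat families, adjusted p = 3.0e-09, 5.3e-11 and 5.7e-09), and 1.96 ± 0.13, 1.75 ± 0.13 and 1.32 ± 0.15 for IAP-d (adjusted p = 5.1e-08, 9.0e-08 and 7.3e-06). Of the 847 repeat families, 17.0% rose in WT, 19.7% in DNMT TKO and 26.0% in TET TKO and 1.42%, 0.236% and 0.354% fell, and IAPEz, measured the same way, changed by 5.66, 6.34 and 5.70. Here and below, such shares count changes of at least 2-fold at an adjusted p under 0.05. The sums of IAPEY3 and IAP-d are called at that adjusted p alone. Sums over every integrant in the track, whatever its reads, gave 2.57, 3.89 and 2.79 for IAPEY3 and 1.96, 1.77 and 1.35 for IAP-d. The reads of a sum cannot tell more RNA per cell from more cells that express the element.

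**Figure D1:**
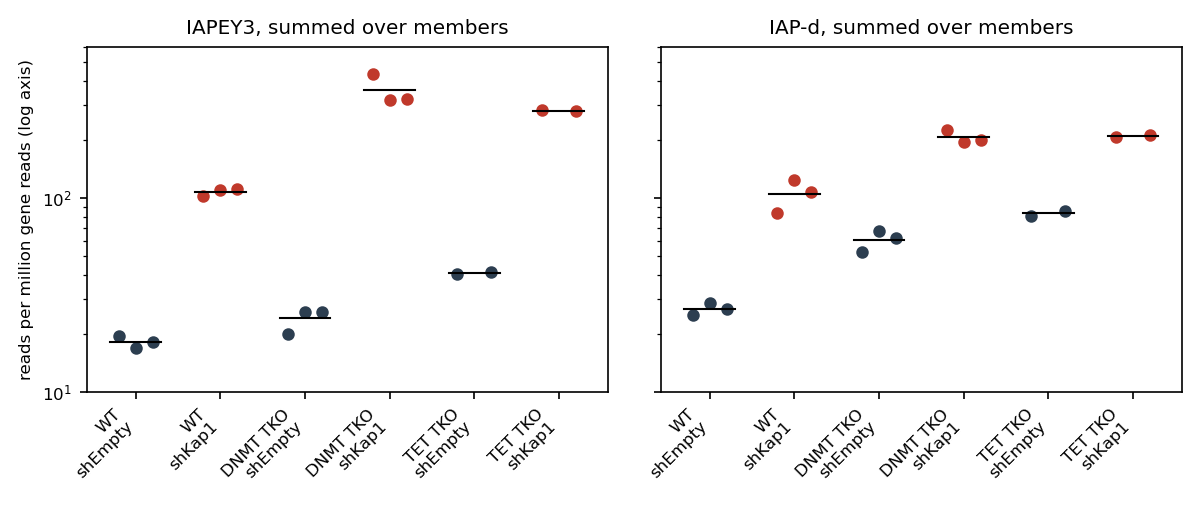
Summed level of the 244 IAPEY3 members (left) and the 99 IAP-d members (right) in each RNA library, in reads per 1000000 gene reads on a log axis, with shEmpty libraries in dark blue, shKap1 libraries in red and a bar at the group mean. IAPEY3 reaches its highest level, 319 to 435, in DNMT TKO shKap1, while IAP-d levels in DNMT TKO shKap1 and TET TKO shKap1 lie within the same range of 194 to 224.

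The response of IAPEY3 was larger in cells without DNA methyltransferases than in WT, and no such difference passed the test for IAP-d. The IAPEY3 change exceeded that in WT by 1.33 ± 0.17 in DNMT TKO (adjusted p = 0.00018), where Trim28 itself fell less, and by 0.20 ± 0.19 in TET TKO (adjusted p = 0.56). Of all repeat families, 3.90% had a response called larger and 1.30% smaller in DNMT TKO, and 5.08% and 1.30% in TET TKO. For IAP-d the differences were -0.21 ± 0.18 in DNMT TKO (adjusted p = 0.50) and -0.64 ± 0.20 in TET TKO (adjusted p = 0.042), a smaller response in TET TKO whose call was lost in 10 of the 16 fits that left out 1 library. Set against each other in the same libraries, the IAPEY3 response exceeded that of IAP-d by 1.41 on the log2 scale (exact permutation test over libraries within genotypes, two-sided, adjusted p = 0.00083, the smallest that 2400 regroupings allow, over 3 pairs of groups), with a difference of 0.63 in WT, 2.14 in DNMT TKO and 1.45 in TET TKO. Both stayed below IAPEz, with a response that differed by -2.83 for IAPEY3 and by -4.23 for IAP-d (adjusted p = 0.00083 each).

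Both groups were also higher in the mutants without knockdown. IAP-d was higher than in WT by 1.18 ± 0.13 in DNMT TKO and by 1.63 ± 0.14 in TET TKO (adjusted p = 1.5e-05 and 3.7e-06), where 4.96% and 3.42% of repeat families were called higher and 7.08% and 2.60% lower, and IAPEY3 by 0.41 ± 0.13 and 1.19 ± 0.14 (adjusted p = 0.023 and 4.6e-05). The shEmpty libraries of the genotypes did not overlap in either group. The IAPEY3 increase in DNMT TKO was under 2-fold and lost its call under limma-voom (adjusted p = 0.060) and in 4 of the 16 fits that left out 1 library. The 2 most-read copies set part of these sums. Without them the mean of shKap1 over shEmpty was 5.54-fold in WT, 11.4-fold in DNMT TKO and 5.62-fold in TET TKO for IAPEY3 (against 5.95, 15.0 and 6.85 with them), and 2.91, 2.44 and 2.23-fold for IAP-d (against 3.90, 3.38 and 2.50), and IAP-d in TET TKO shEmpty stood 1.95-fold above WT shEmpty in place of 3.09-fold, below the 2.43-fold of DNMT TKO shEmpty (2.26-fold with them).

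Many single IAPEY3 integrants rose on knockdown and 0 of 244 were called down. A call took a change of at least 2-fold and an adjusted p under 0.05 over the whole TE table. In WT 93 of 244 were called up, where 12.1% of all tested TE integrants were. In DNMT TKO 161 were, with 15.0% of all TEs, and in TET TKO 142, with 14.7% of all TEs. Of all TEs, 2.05%, 0.944% and 0.971% were called down. The median fitted change of the members was 2.84, 4.06 and 3.98, against 0.23, 0.27 and 0.33 over all tested TEs. Many of these changes come from members with few or no shEmpty reads. There the fit depends on its prior count, so the medians are no measured sizes. These counts describe only what passed the read threshold. Of the 244 members, 198 had fewer than 16 reads in the 8 shEmpty libraries together, so they passed only with their shKap1 reads. The 58 of them with no shEmpty read could not fall.

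**Figure D2:**
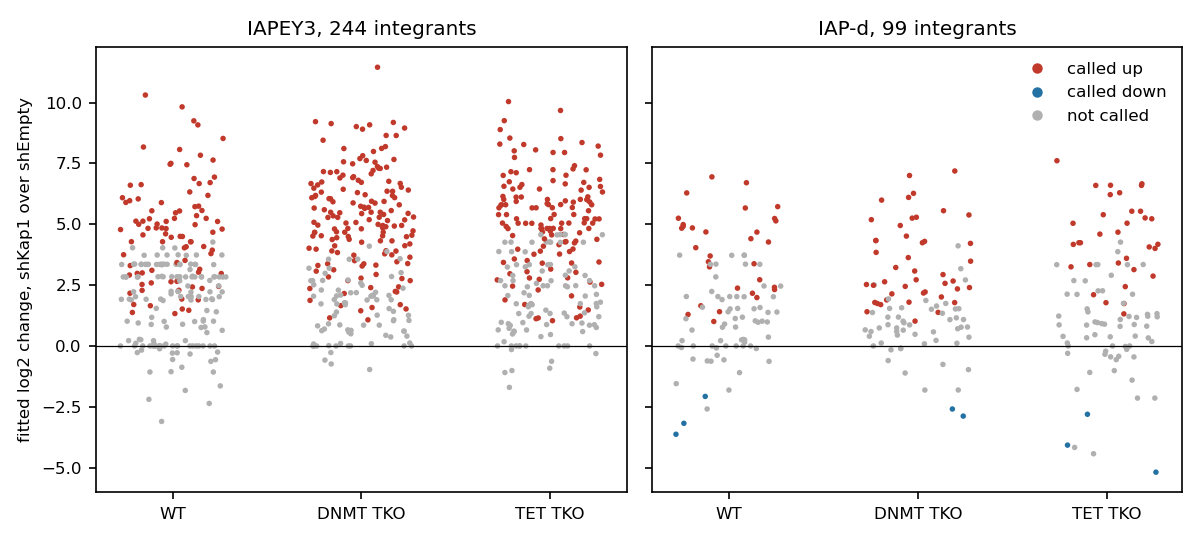
Fitted log2 change of each member on knockdown, shKap1 over shEmpty, in the 3 genotypes, with integrants called up in red, called down in blue and not called in grey. IAPEY3 has no blue point, IAP-d has 3, 2 and 3, and values above about 5 often come from integrants without shEmpty reads, where the fit gives no bound.

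The most-read IAPEY3 copy, chr13:62405165-62412854 (+ strand, intergenic, internal sequence with an IAPEY3_LTR at 1 end), was at 0.278, 0.249 and 0.318 CPM in WT shEmpty and at 2.36, 1.86 and 2.29 in WT shKap1. It went from 0.102, 0.242 and 0.347 to 50.3, 32.4 and 36.8 in DNMT TKO and from 0.634 and 0.451 to 46.0 and 47.1 in TET TKO. The levels before knockdown overlapped between WT and DNMT TKO, and after knockdown every mutant library stood above every WT library. Its log2 change of 2.92 ± 0.24 in WT was exceeded by 4.43 in DNMT TKO and 3.49 in TET TKO (adjusted p = 1.1e-13 and 2.4e-09 for the differences), and the difference in TET TKO was not called by limma-voom (3.54, adjusted p = 0.11).

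The provirus chr11:50957218-50965457 (- strand), whose LTR is printed above, had no read in the 3 WT shEmpty libraries and 107, 172 and 136 reads in WT shKap1, at least 169-fold more if 3 reads are granted to the empty libraries together. It reached 63.6, 46.7 and 43.9 CPM in DNMT TKO shKap1 against 6.34 and 8.32 in TET TKO shKap1 and 5.61, 7.45 and 7.25 in WT shKap1. The DNMT TKO libraries were therefore apart from the other knockdown libraries, which overlapped. In DNMT TKO shEmpty it had 1, 0 and 6 reads, and its call there against WT (4.22 on the log2 scale, adjusted p = 0.022) was lost without DNMT TKO shEmpty replicate 3 and without any of the 3 WT shEmpty libraries (2.28 to 4.24, adjusted p up to 0.53). Here and below, a fitted log2 change against a group with 0 reads depends on the prior count of the fit and is no measured size. The provirus chr5:138651204-138659420 (- strand, intergenic) rose in WT from 0.0555, 0 and 0.0354 CPM to 1.89, 3.72 and 3.78, and it was already at 0.508, 0.414 and 0.386 in DNMT TKO shEmpty, above every WT and TET TKO shEmpty library (3.75 ± 0.55 over WT, adjusted p = 8.6e-07). It rose from there to 15.7, 14.0 and 13.8 CPM in DNMT TKO and to 6.02 and 6.16 in TET TKO.

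Other IAPEY3 copies were close to silent before knockdown. The internal fragment chr7:16397779-16404044 had no read in any DNMT TKO or TET TKO shEmpty library and 425, 267 and 322 reads in DNMT TKO shKap1, at least 365-fold more, against 9, 12 and 11 reads in WT shKap1. It was called up in WT and TET TKO as well, and in neither mutant was its response called different from that in WT. chr6:124556474-124560187, in an intron of the complement gene C1s on the opposite strand, rose at least 72.8-fold in WT and at least 79.9-fold in TET TKO. chr17:32854598-32854836, an internal stretch of 239 bp, rose at least 81.0-fold in WT and chr6:128565203-128567686 at least 76.3-fold in DNMT TKO. The provirus chr12:19520013-19528255 had 58, 32 and 138 reads in DNMT TKO shKap1 and none in any other library.

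Some copies were lower in DNMT TKO shKap1 than in WT shKap1. The provirus chr15:34159214-34161925 went from 0.389, 0.0356 and 0.0708 CPM to 3.62, 3.68 and 4.53 in WT and from 0.106 and 0.0751 to 7.59 and 6.01 in TET TKO, but only from 0.152, 0.104 and 0.231 to 0.769, 0.188 and 0.519 in DNMT TKO. The DNMT TKO shKap1 libraries lay below every other shKap1 library, and the response there differed from that in WT by -3.20 ± 0.65 on the log2 scale (adjusted p = 0.00048), a call lost without DNMT TKO shEmpty replicate 3 (-2.84, adjusted p = 0.070). chr8:87700389-87704294 had 97, 108 and 89 reads in WT shKap1 and 71 and 63 in TET TKO shKap1, with none in their shEmpty libraries, but 1, 1 and 2 in DNMT TKO shKap1. With 0 reads in every shEmpty library, the difference of these responses had no finite estimate. The fragment chr12:19715679-19715917 had 1, 10 and 3 reads in WT shEmpty and none in DNMT TKO shEmpty (-5.16, adjusted p = 0.00028, and -4.08 with adjusted p = 0.064 without WT shEmpty replicate 2). It had 4, 1 and 1 reads in DNMT TKO shKap1 against 53, 64 and 40 in WT shKap1, but its fitted change, 4.12 in DNMT TKO from 0 reads (adjusted p = 0.022, and up to 0.22 without any 1 of the 3 DNMT TKO shEmpty libraries or DNMT TKO shKap1 replicate 1) and 3.75 in WT, was not called different (0.37, adjusted p = 0.86).

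Over all IAPEY3 members, the response was called larger in DNMT TKO than in WT for 8 and smaller for 2, with 1.33% and 0.473% of all TEs, and larger in TET TKO for 2 and smaller for 0, with 0.831% and 0.243%. These counts depended on the method: over the alternatives between 5 (1 read or more) and 44 (limma-voom) were called in DNMT TKO and between 1 (DESeq2) and 9 (limma-voom) in TET TKO. The shares of all TEs called under those alternatives were not counted. The alternative counts therefore do not tell IAPEY3 from TEs in general. The other copy called larger in TET TKO, chr3:19012617-19015230, had 3, 2 and 2 reads in WT shEmpty, 1, 4 and 2 in WT shKap1 and 30 and 30 in TET TKO shKap1 after 0 and 1 in TET TKO shEmpty. Its libraries were apart on knockdown in TET TKO and overlapped in WT. Integrants with IAPEY3_LTR had a median change of 2.84 in WT, 5.08 in DNMT TKO and 4.27 in TET TKO, and those with IAPEY2_LTR of 2.43, 2.68 and 2.53, a description without a test. These medians include members with few shEmpty reads, where the fit depends on the prior count, so they are no measured sizes. The larger DNMT TKO response was called in 4 of 53 integrants with IAPEY3_LTR and 1 of 97 with IAPEY2_LTR, and the smaller one in 0 and 2. Before knockdown, 16 of the 18 IAPEY3 members called higher in TET TKO shEmpty than in WT shEmpty carried IAPEY2_LTR, where 1.74% of all TEs were called, and 9 of the 18 lay on chromosome 4, which holds 22 of the 244 members. Among them, chrX:71798431-71800892 went from 0, 0.0356 and 0.106 CPM in WT shEmpty to 0.458 and 0.451 in TET TKO shEmpty, and chr13:105468715-105469727, in an intron of Cwc27, from 0.0555, 0 and 0.142 to 0.634 and 1.05. Their libraries did not overlap. In DNMT TKO shEmpty, 9 members were called higher and 4 lower, with 3.48% and 6.45% of all TEs.

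**Figure D3:**
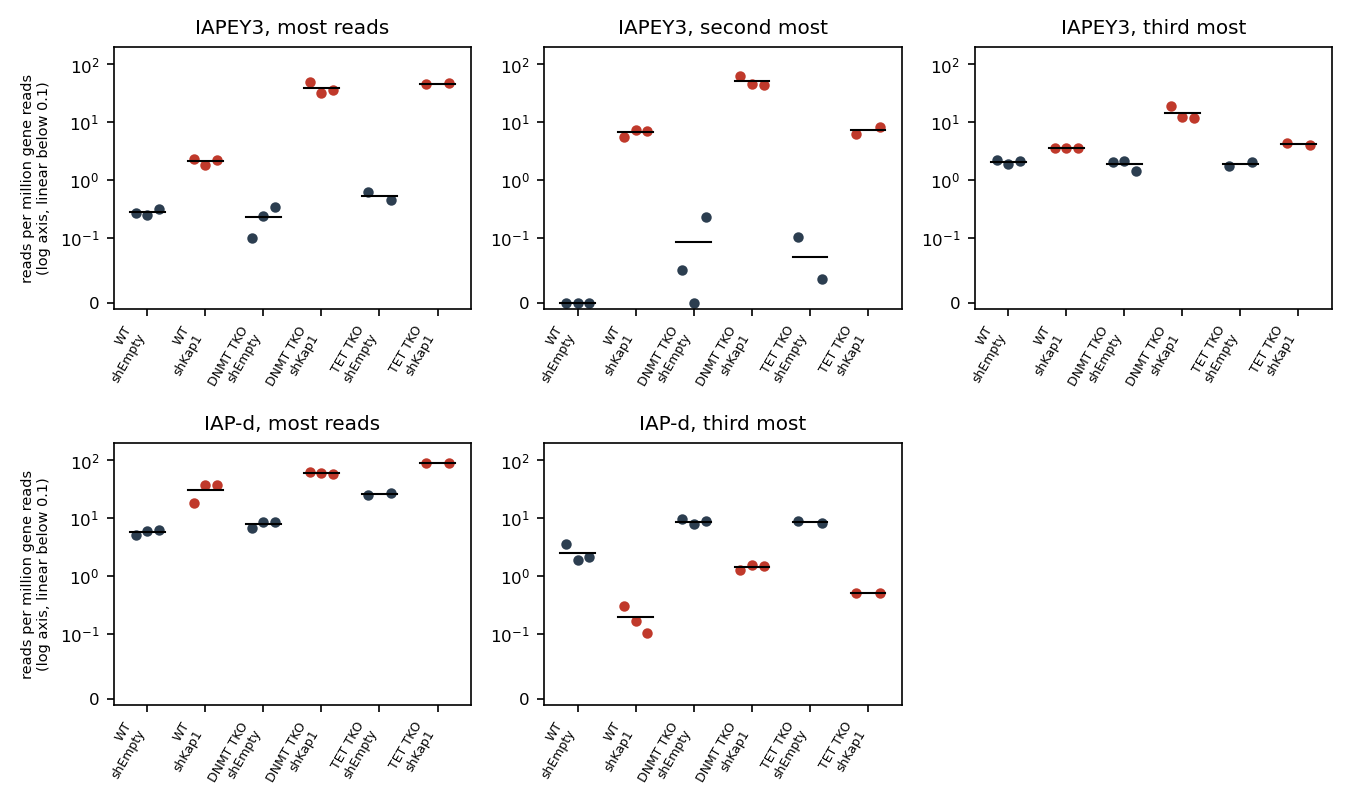
Level of the 3 most-read integrants of IAPEY3 (top) and of the first and the third by reads of IAP-d (bottom) in each RNA library, in reads per 1000000 gene reads on an axis that is linear below 0.1 and logarithmic above, with shEmpty in dark blue, shKap1 in red and bars at group means. The most-read IAPEY3 copy (top left), chr13:62405165, is high after knockdown in both mutants and chr11:50957218 (top middle) in DNMT TKO, and the IAP-d copy chr8:53443770 (bottom middle) falls in all 3 genotypes.

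Among IAP-d integrants, more were called up than down. In WT 31 of 99 were called up and 3 down, with 12.1% and 2.05% of all TEs, in DNMT TKO 45 and 2, with 15.0% and 0.944%, and in TET TKO 33 and 3, with 14.7% and 0.971%. The median fitted change was 1.54, 1.64 and 1.40, which also depends on the prior count where shEmpty reads are few. Fewer than 16 shEmpty reads were held by 48 of the 99 members, and 10 of these had none.

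The most-read copy, chr17:28678644-28680881 (- strand, intergenic, RLTR10D at each end, 2238 bp), was at 5.22, 6.12 and 6.19 CPM in WT shEmpty, 6.75, 8.60 and 8.68 in DNMT TKO shEmpty and 25.7 and 27.2 in TET TKO shEmpty. After knockdown it was at 18.6, 37.2 and 37.7, at 63.5, 61.2 and 59.2, and at 90.6 and 91.1. Every group lay above the one before it in this order, hairpin by hairpin, and TET TKO was apart from WT also without knockdown (2.17 ± 0.16, adjusted p = 4.5e-41). Its log2 response was 2.41 in WT, 2.93 in DNMT TKO and 1.78 in TET TKO, and the differences from WT were not called (adjusted p = 0.21 and 0.18).

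Some RLTR10D copies were already high in DNMT TKO cells without knockdown. chr12:18906357-18909289 (+ strand, intergenic) was at 0.167, 0.0356 and 0.0354 CPM in WT shEmpty, 3.35, 3.46 and 4.37 in WT shKap1, and 3.45, 5.70 and 3.35 in DNMT TKO shEmpty. The DNMT TKO shEmpty libraries overlapped WT shKap1, and the DNMT TKO shKap1 libraries were at 6.15, 4.70 and 5.30 (0.36 ± 0.21, adjusted p = 0.30). The response in DNMT TKO differed from that in WT by -5.31 ± 0.45 (adjusted p = 6.7e-28), and that in TET TKO, from 0.176 and 0.263 to 1.62 and 1.64 CPM, by -2.80 ± 0.66 (adjusted p = 0.016), a call lost in 4 fits that left out WT shEmpty replicate 2 or 3 or either TET TKO shEmpty library (-3.06 to -2.45, adjusted p up to 0.38). chr12:22739990-22742935, in an intron of Gm6950, rose from 1 read in each WT shEmpty library and spread widely after knockdown, at 7.39, 7.75 and 1.71 CPM in WT shKap1 and 2.82 and 8.62 in TET TKO shKap1, and its difference in DNMT TKO was not called (-5.31 ± 1.21, adjusted p = 0.062). chr5:145338398-145342660 was at 1.62, 1.93 and 2.01 CPM in DNMT TKO shEmpty against 0.0555, 0.0356 and 0.0354 in WT shEmpty, apart in every library (5.35 ± 0.46, adjusted p = 4.5e-29).

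The provirus chr11:106492194-106494452, printed above, rose in all 3 genotypes, going from 0.0555, 0.178 and 0.0708 CPM to 1.26, 1.65 and 1.44 in WT, from 0.965, 0.587 and 0.501 to 13.3, 13.0 and 11.9 in DNMT TKO and from 0.388 and 0.338 to 6.16 and 5.70 in TET TKO. Every mutant library was above every WT library under either hairpin. The TET TKO difference in shEmpty kept its call in only 3 of 7 alternatives, and lost it with the replicate block (1.63, edgeR, adjusted p = 0.068). The responses were 3.70, 4.24 and 4.01, and the mutants differed from WT by 0.54 ± 0.58 and 0.31 ± 0.67, less than the error of each difference. Among the copies with few shEmpty reads, chr17:34918271-34919749, in an intron of Tnxa on the opposite strand, rose at least 13.8-fold in WT and at least 7.59-fold in TET TKO, and chr5:138302833-138303063 at least 19.2-fold in TET TKO.

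Of the 99 IAP-d members, 32 were called higher in DNMT TKO shEmpty than in WT shEmpty and 9 lower, where 3.48% and 6.45% of all TEs were, and 16 were called higher and 2 lower in TET TKO, with 1.74% and 2.33%. RLTR10D was the LTR of 27 of the 32 and 11 of the 16. Chromosome 12 held 27 of the 99 members, 15 of the 31 called up in WT and 11 of the 32 called higher in DNMT TKO shEmpty. In DNMT TKO the knockdown was called up for 7 of these 27 and for 38 of the 72 on other chromosomes, with 15.0% of all TEs, and in TET TKO for 6 and 27, with 14.7%. The 3 members whose response was called smaller in DNMT TKO, with 0.473% of all TEs, were all on chromosome 12. Among these, chr12:24261293-24264225 had 2, 24 and 0 reads in WT shKap1, and without WT shKap1 replicate 2 the difference was -4.42 with an adjusted p of 0.37.

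Other IAP-d copies were lower in DNMT TKO. chr12:23036494-23037685, in an intron of 2410018L13Rik on its strand, was at 0.833, 1.07 and 0.637 CPM in WT shEmpty, had 1 read over the 6 DNMT TKO libraries and was at 1.34 and 1.39 CPM in TET TKO shEmpty. The host gene was at 7.46 ± 0.73 CPM in WT shEmpty and 0.111 ± 0.038 in DNMT TKO shEmpty (-6.05, adjusted p = 5.1e-11). chr5:122869257-122870877 differed in DNMT TKO shEmpty from WT shEmpty by -4.56 on the log2 scale (adjusted p = 1.3e-22), at 1, 1 and 3 reads against 16, 56 and 59 in WT shEmpty. chr9:85833656-85836565 had 7, 8 and 9 reads in WT shEmpty and none in the 3 DNMT TKO and 2 TET TKO shEmpty libraries.

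A pair of adjacent IAP-d fragments on chromosome 8, on the same strand, fell on knockdown in every genotype. chr8:53443770-53445196 (+ strand, internal sequence of 1427 bp, intergenic) went from 3.55, 1.92 and 2.16 CPM to 0.315, 0.173 and 0.107 in WT, from 9.75, 7.91 and 8.87 to 1.30, 1.60 and 1.48 in DNMT TKO, and from 8.99 and 8.41 to 0.509 and 0.513 in TET TKO. shKap1 and shEmpty libraries were apart in each genotype, and the fall was -3.63 ± 0.32, -2.59 ± 0.22 and -4.08 ± 0.31 on the log2 scale (adjusted p = 5.5e-28, 1.5e-29 and 3.6e-36). Both mutants were above WT before knockdown, by 1.82 and 1.80. Its neighbour chr8:53442112-53443658 fell by 3.18, 2.88 and 5.19, with 131 reads in all against 1443, and its call in WT was lost without WT shEmpty replicate 1, WT shKap1 replicate 1 or WT shKap1 replicate 3 (-2.77 to -2.75, adjusted p up to 0.077). Neither overlapped a KAP1 region, both overlapped an H3K9me3 region that was lost without KAP1, and as neighbours on 1 strand the 2 fragments may not be independent. A further RLTR10D copy, chr13:33966944-33969467, fell in WT from 0.278, 0.356 and 0.425 CPM to 0, 0.173 and 0.0533 (-2.07 ± 0.63, adjusted p = 0.0098, and up to 0.11 without WT shEmpty replicate 3, WT shKap1 replicate 1 or WT shKap1 replicate 3), within 10 kb of Serpinb6c, a serine protease inhibitor gene that itself went from 15.4 ± 1.3 to 3.27 ± 0.48 CPM in WT. In DNMT TKO it was at 0.355, 0.380 and 0.578 CPM in shEmpty and 1.06, 0.517 and 0.705 in shKap1, a difference from WT of 2.84 ± 0.75 (adjusted p = 0.012, and up to 0.099 without 1 of 4 libraries), and Serpinb6c was at 9.86 ± 0.36 and 9.67 ± 1.2 there. chr17:13691920-13693514, over an exon of Tcte2 on its strand, fell in TET TKO from 1.16 and 0.939 to 0.185 and 0.103 CPM.

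In summed reads the split by LTR gave opposite directions in the 2 groups, and in IAP-d its average over the genotypes rested on single copies. Over single IAP-d integrants the median fitted change went the other way. It was 2.24, 3.22 and 3.41 in WT, DNMT TKO and TET TKO for the 31 without an LTR. For the 61 with RLTR10D it was 1.39, 1.41 and 1.21, and for the 7 with RLTR10A 1.01, 2.40 and 1.30. These medians include copies with few shEmpty reads and were not tested. The 188 IAPEY3 members with an LTR went from 18.1, 15.3 and 16.7 CPM to 86.0, 91.6 and 96.1 in WT, and the 56 without from 1.33, 1.49 and 1.42 to 16.1, 18.0 and 15.8. The response of members with an LTR differed by -1.33 on the log2 scale over the 3 genotypes (exact permutation test over libraries, two-sided, adjusted p = 0.0011 over 4 splits). The 68 IAP-d members with an LTR went from 18.3, 24.1 and 22.4 to 78.2, 117 and 101 CPM in WT, and the 31 without from 6.72, 4.77 and 4.49 to 5.50, 6.58 and 6.56, which overlap. In DNMT TKO these 31 went from 12.2, 11.6 and 12.4 to 14.9, 16.7 and 15.9, apart in every library. The response of IAP-d members with an LTR was larger by 1.66 (adjusted p = 0.0011 by the same exact test), but by -0.038 (adjusted p = 0.86) without the most-read integrant of each subset, among them the falling copy on chromosome 8, by 1.45 (adjusted p = 0.00083) without the most-read IAP-d copy alone, and by -0.18 (adjusted p = 0.50) without the 2 copies that fell, the last 2 omissions chosen after seeing the data. The ratios of -0.038 and -0.18 average genotypes that went opposite ways. In WT, DNMT TKO and TET TKO the values behind -0.038 were 0.99, -0.52 and -0.58. Those behind -0.18 were 0.97, -0.56 and -0.93. The split by KAP1 region used the same region list for all 3 genotypes, so it does not describe KAP1 binding in the mutants. Members with a KAP1 region had a response larger by 1.56 in IAP-d (adjusted p = 0.0011), which was 0.28 (adjusted p = 0.087), 1.37 (adjusted p = 0.00083) and 0.30 (adjusted p = 0.060) under the same omissions by the same exact test. In WT, DNMT TKO and TET TKO the values behind 0.28 were 0.80, -0.16 and 0.21, and those behind 0.30 were 0.79, -0.044 and 0.14. In IAPEY3 the ratio was -0.037 (adjusted p = 0.84), from 0.23 in WT, 0.36 in DNMT TKO and -0.70 in TET TKO. The 62 IAPEY3 members without a KAP1 region together went from 1.44, 1.46 and 2.41 to 7.81, 10.7 and 8.58 CPM in WT, apart in every library. Members could pass the read threshold through shKap1 reads alone, so a rise in this set is partly built in. Over every IAPEY3 integrant of the track, the KAP1 ratio was -0.0085 (adjusted p = 0.96) and the LTR ratio -1.26 (adjusted p = 0.0011, same exact test).

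**Figure D4:**
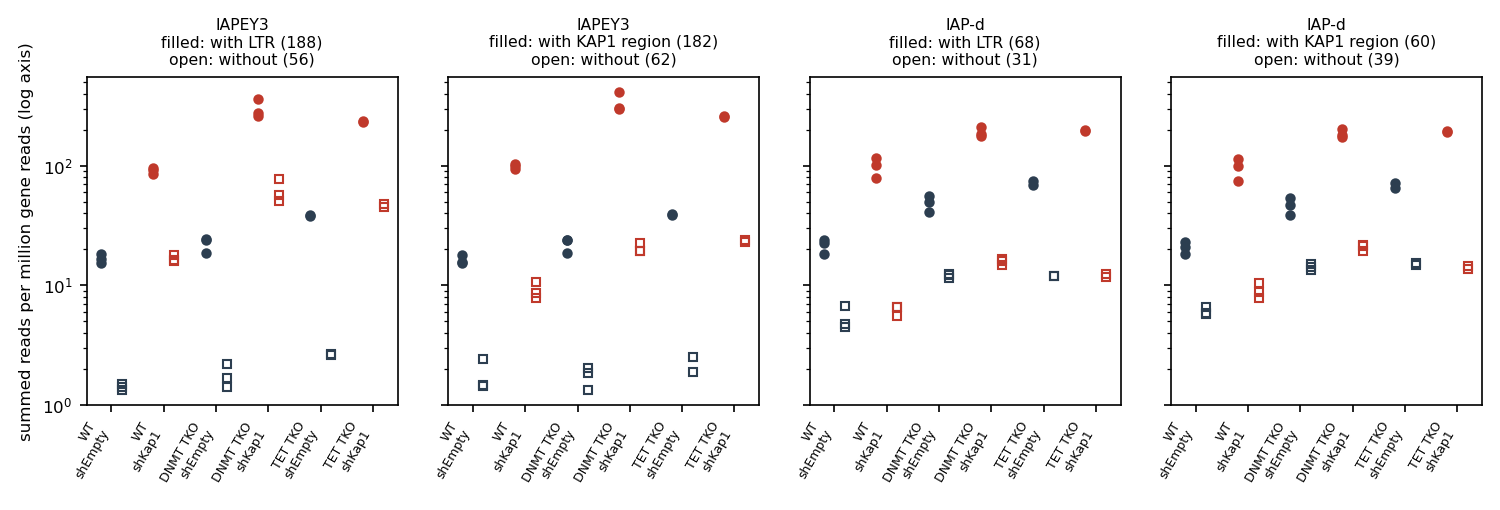
Summed level of members with (filled circles) and without (open squares) an LTR or an overlapping KAP1 region, in reads per 1000000 gene reads on a log axis, per RNA library, with shEmpty in dark blue and shKap1 in red. In IAPEY3 every subset rises on knockdown, and in IAP-d the members without LTR lie between 4.49 and 16.7 CPM, with shKap1 above shEmpty libraries in DNMT TKO and overlapping in WT.

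KAP1 regions were set beside the members. The region lists were not separated by genotype, so the overlaps do not describe KAP1 or H3K9me3 in the mutants. By the deposited region lists, 182 of the 244 IAPEY3 members lay under a KAP1 region, with a minimum overlap of 1 bp (74.6%, exact binomial 95% interval 68.6 to 79.9) and 60 of the 99 IAP-d members did (60.6%, 50.3 to 70.3). At a reciprocal overlap of 25% the shares were 45.9% and 32.3%. H3K9me3 regions overlapped 180 (73.8%) and 54 (54.5%), and in 174 and 53 of these the region was in the list of H3K9me3 lost without KAP1. Both KAP1 and H3K9me3 lay over 161 IAPEY3 and 44 IAP-d members. The active mark H3K4me3 overlapped 1 member of each group, and H3K27me3, the mark of Polycomb repression, overlapped 0 of 244 and 0 of 99, with upper interval bounds of 1.5% and 3.66%. The intervals cover counting error alone, and in every integrant of the track, read or not, KAP1 overlapped 31.7% and 16.7%.

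The place of the highest-scoring KAP1 region was compared between the groups. In the 52 IAPEY3 members with 2 end LTRs and a KAP1 region, the centre of the highest-scoring region lay 1740 bp from the 5′ end in the median, at a fraction of 0.26 of the element (quartiles 0.20 and 0.42), and 40 of the 52 centres were in the 5′ part up to the middle. In the 24 such IAP-d members it lay 2857 bp from the 5′ end at a fraction of 0.87 (0.82 and 0.92), and 23 of 24 centres were in the 3′ part. Several KAP1 regions lay in 43 of the 52 IAPEY3 members and in 3 of the 24 IAP-d members, so the IAPEY3 positions describe 1 region picked among several. The difference was not tested, since positions in copies of 1 ancestral element are not independent.

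**Figure D5:**
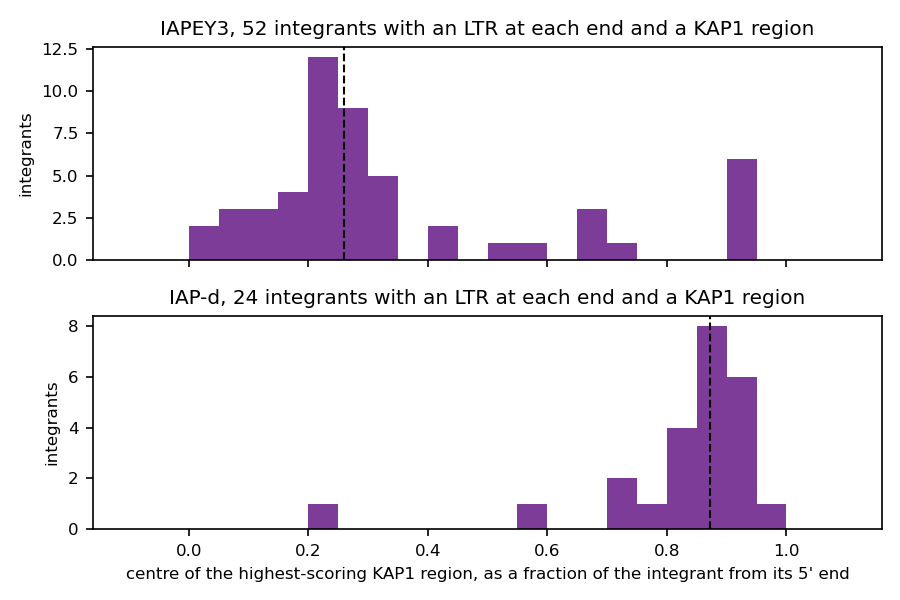
Position of the centre of the highest-scoring KAP1 region along members with an LTR at each end, as a fraction of the element from its 5′ end, with counts of integrants on the y axis and a dashed line at the median. The 52 IAPEY3 positions gather around 0.26 and the 24 IAP-d positions around 0.87.

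5hmC was measured by immunoprecipitation (hMeDIP) in WT cells, with a single usable library per condition, so no test was possible. Libraries were scaled to their reads over the deposited KAP1, H3K9me3, H3K4me3, H3K27me3 and imprinting control regions together. Over 276 KAP1 regions that hold an IAPEY3 member and at least 10 input reads, the ratio of 5hmC to input reads rose on knockdown by a median of 1.03 on the log2 scale (quartiles 0.49 and 1.49), and 252 of the 276 were above 0. Over 67 regions with an IAP-d member the median was 0.88 (0.27 and 1.33), with 54 above 0. The medians for IAPEz and for all 25992 KAP1 regions were 0.93 and 0.64, and 20054 of all regions were above 0. When the libraries were scaled to H3K4me3 regions instead, the medians fell to 0.64 for IAPEY3, 0.49 for IAP-d and 0.26 for all regions, since this scaling takes the same amount from every region, so the size of the gain depended on the scale. Then 219 of 276, 45 of 67 and 16035 of 25992 were above 0. Regions over members called up in WT had medians of 1.16 for IAPEY3 and 1.12 for IAP-d, and those over members not called up of 0.97 and 0.63.

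Genes near members that rose were also counted. Of the 49 tested genes within 10 kb of an IAPEY3 member called up in WT, 19 were called up and 1 down, where 10.8% and 6.54% of all genes were. In DNMT TKO it was 21 up and 1 down of 64, with 10.1% and 2.42% of all genes, and in TET TKO 23 and 1 of 54, with 8.05% and 4.46%. For IAP-d the counts were 5 of 12, 6 of 18 and 3 of 10 called up and none down. C1s, host of an IAPEY3 copy, rose from 8.48 ± 1.3 to 24.7 ± 5.1 CPM in WT, and Laptm4b, a lysosomal membrane protein gene near chr15:34159214, from 22.2 ± 1.1 to 52.7 ± 7.4 in WT and from 23.1 to 46.8 in TET TKO. C1s was also called up in TET TKO but not in DNMT TKO, where its copy rose too. The zinc finger gene Gm13230, near chr4:145046883-145049318, rose from 55.9 ± 7.1 to 246 ± 28 in WT, while that IAPEY3 copy went from 1.94, 1.25 and 1.20 CPM to 5.98, 5.07 and 5.38. In DNMT TKO the copy was at 1.68, 2.11 and 2.51 CPM in shEmpty and 3.94, 3.15 and 4.34 in shKap1, a response that differed from that in WT by -1.07 ± 0.30 (adjusted p = 0.026, and up to 0.17 without 1 of 6 libraries). Gm16899, over an exon of which the IAPEY3 provirus chr1:7339430-7345409 lies on the same strand, rose in DNMT TKO from 0.748 ± 0.11 to 4.10 ± 0.78 CPM, with the provirus going from 2.08, 2.18 and 1.43 to 19.5, 12.3 and 11.9. In WT the provirus went from 2.28, 1.89 and 2.16 to 3.67, 3.55 and 3.62, and its response in DNMT TKO exceeded that of WT by 2.16 ± 0.29 (adjusted p = 1.6e-10). Members and genes that share a neighbourhood can share transcripts, and a gene can have several members near it.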

How the data were processed

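RNA-seq of 16 libraries was analysed, with 1 hMeDIP library per condition. 4 further hMeDIP libraries, whose labels did not settle their group, and the separate H3K4me3 and H3K27me3 ChIP replicates were not used. The deposited read counts per TE and per gene are raw: per the study's methods the authors aligned reads to mm9 with HISAT2 2.0.1, kept uniquely mapped reads, and counted them by strand with bedtools 2.25 on a RepeatMasker track in which internal parts and LTRs within 400 bp were merged, and with featureCounts for genes. Copies that share sequence lose reads to this filter. The deposited region lists carry a score from MACS 1.4 or SICER 1.1, and hMeDIP reads were deposited as counts over these lists, KAP1 regions among them.

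Counts were tested with edgeR 4.0.16 (quasi-likelihood, R 4.3.3) over all 123880 TEs, 847 repeat families or 20321 genes, with gene library sizes and TMM factors, and p-values were adjusted by Benjamini-Hochberg. The SE beside an edgeR log2 change was derived from the test, as the absolute log2 change divided by the square root of its F statistic. CPM are reads per 1000000 gene reads, with TMM factors. Lower bounds of a fold grant 3 reads to a group at 0. Ratios of sums (pseudocount 0.5 reads) were tested by exact permutation over libraries. The edgeR test of integrants was run on simulated counts for knockdown in WT alone, with changes set only in well-read TEs. Changes in members with few reads, the other contrasts and the permutation tests were not simulated. Limma 3.58.1 (voom), DESeq2 1.42.0, other filters, TE scaling, a replicate block and leaving out each library were tried. Replicate numbers paired libraries over genes (same-number correlations of 0.218 to 0.412 between WT hairpins and 0.162 to 0.493 between DNMT TKO hairpins), but not for TET TKO and not over TEs, and the labels do not say what a number shares. Same-number libraries of WT and DNMT TKO shEmpty also correlated over genes (0.248 to 0.453), and those of WT and TET TKO shEmpty did not (-0.015 and -0.019). Anything that TET TKO libraries did not share with the others in handling cannot be told apart from genotype.

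Integrants named were the 3 largest called rises and falls of each knockdown (100 reads or more, libraries apart), the 2 largest called in each direction of the genotype and interaction contrasts (50 reads or more), and the 3 most read, with called genes within 10 kb. 1 integrant that this rule names and 1 gene are not reported here. The members, lists and tests were chosen with earlier results of these data known.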

Additional observations from a re-analysis of the deposited data

Results flagged for a closer look

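The difference of a knockdown effect from that in WT passed the edgeR test for both summed groups, for several integrants and for Trim28, all on the log2 scale. For the sums it was 1.33 for IAPEY3 in DNMT TKO and -0.64 for IAP-d in TET TKO. For Trim28 it was 1.28 in DNMT TKO.

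Among IAPEY3 integrants, the response was larger in DNMT TKO for chr13:62405165 (4.43), chr1:7339430 (2.16), chr3:19012617 (4.82), chr3:95221131 (5.45) and chr4:122339665 (5.48), and larger in TET TKO for chr13:62405165 (3.49) and chr3:19012617 (5.71). It was smaller in DNMT TKO for chr15:34159214 (-3.20) and chr4:145046883 (-1.07). The provirus chr3:95221131 went from 0, 1 and 0 reads to 33, 24 and 30 in DNMT TKO, and its difference lost its call in 7 of the fits that left out 1 library (2.37 to 5.54). WT shEmpty libraries had 0, 0 and 3 of its reads, against 1, 2 and 1 after knockdown. chr4:122339665, without a KAP1 region, went from 2, 11 and 11 reads to 1, 5 and 0 in WT and from 1, 0 and 0 to 8, 6 and 4 in DNMT TKO. The call for chr3:19012617 in DNMT TKO was lost without WT shEmpty replicate 1 or DNMT TKO shEmpty replicate 2 (4.43 and 4.28).

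Among IAP-d integrants, the response was smaller in DNMT TKO for chr12:18906357 (-5.31) and chr12:24261293 (-7.26) and smaller in TET TKO for chr12:18906357 (-2.80) and chr11:31448397 (-5.11). It was larger in DNMT TKO for chr13:33966944 (2.84) and in TET TKO for chr14:32672998 (2.49). The fragment chr11:31448397 had no read in WT shEmpty, 3, 3 and 2 in WT shKap1 and 15, 51 and 36 in DNMT TKO shEmpty. With WT shEmpty at 0 its fitted difference, like that of chr12:24261293, depends on the prior count and is no measured size, and over the alternatives it ran from -5.20 to -3.50 (edgeR, limma-voom or DESeq2, adjusted p up to 0.19). The provirus chr14:32672998 had 5, 8 and 8 reads in WT shEmpty and 5, 2 and 6 in WT shKap1, against 4 and 7 and then 16 and 20 in TET TKO. Its difference kept its call in only 2 of 7 alternatives (2.36 to 2.59, edgeR, limma-voom or DESeq2, adjusted p up to 0.18). The TET TKO differences of chr11:31448397 and chr14:32672998 each lost their call in 8 of the fits that left out 1 library (-5.13 to -4.52, and 2.06 to 2.98).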

How the results depend on the processing

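The summed knockdown responses of both groups kept their direction and call in every genotype under every alternative run, the replicate block included (2.58 for IAPEY3 in WT and -0.63 with adjusted p = 0.027 for IAP-d in TET TKO against WT), and the block changed no call of a sum. limma-voom gave the IAPEY3 difference of DNMT TKO from WT in shEmpty as 0.41 (adjusted p = 0.060). Leaving out 1 library, which leaves a lone TET TKO library assumed to vary like the other groups, gave it as 0.346 to 0.519, lost without WT shEmpty replicate 2 or 3 or DNMT TKO shEmpty replicate 2 or 3, and gave the smaller IAP-d response in TET TKO as -0.777 to -0.504, lost without WT shEmpty 1 or 3, WT shKap1 3, DNMT TKO shEmpty 3, DNMT TKO shKap1 2 or 3, or any TET TKO library. Counts of called integrants moved as follows, and the shares of all TEs were counted in the main fit alone. Knockdown in DNMT TKO called 98 of 126 IAPEY3 integrants at 48 reads or more, and in TET TKO DESeq2 called 88. The larger or smaller responses of IAPEY3 in DNMT TKO numbered 44 by limma-voom, 5 at 1 read or more and 5 to 10 without 1 library, and in TET TKO 9 by limma-voom and 1 by DESeq2. Those of IAP-d in DNMT TKO numbered 7 with TE scaling, 2 by DESeq2 and 2 to 5 without 1 library, and in TET TKO 3 by limma-voom, 2 by DESeq2, 2 at 1 read or more, 2 at 48 reads or more and 1 to 6 without 1 library. For comparison, the main fit called the IAP-d response larger in DNMT TKO for 1 of 99 integrants and smaller for 3. Of all TEs, 1.33% and 0.473% were called in these directions. In TET TKO the main fit called 1 IAP-d response larger and 4 smaller, with 0.831% and 0.243% of all TEs. DESeq2 called 26 IAP-d integrants between DNMT TKO and WT in shEmpty. The IAP-d LTR ratio was -0.038 without the most-read integrants and -0.18 without the 2 copies that fell, a setting chosen after seeing the data, and the IAP-d KAP1 ratio 0.28 and 0.30. Both of these LTR ratios were above 0 in WT and below 0 in the mutants. The IAPEY3 KAP1 ratio was -0.126 to 0.0326 without 1 library, above 0 without WT shEmpty 1, WT shKap1 2 or TET TKO shEmpty 1. At 25% reciprocal overlap KAP1 covered 45.9% of IAPEY3 and 32.3% of IAP-d members and H3K9me3 49.2% and 34.3%. Over every integrant KAP1 covered 31.7% and 16.7% and H3K9me3 29.0% and 21.6%. H3K4me3 covered 0% of IAPEY3 members at 25% overlap or with wide regions, and 0% of IAP-d members with wide regions. Within 50 kb, 35 of 122, 47 of 182 and 50 of 162 genes near IAPEY3 and 10 of 44, 13 of 70 and 9 of 45 near IAP-d were called up in WT, DNMT TKO and TET TKO, smaller shares than within 10 kb, and 3, 1 and 0 near IAP-d were called down. TE scaling moved the median of all TEs by -0.095, -0.16 and -0.20 in the 3 knockdowns. The causes were not tested. Depth limits copies with few shEmpty reads, and only a group with 0 reads was given a bound. Without the most-read IAP-d integrant alone, also chosen after seeing the data, the IAP-d LTR ratio was 1.45 and the KAP1 ratio 1.37.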
